A study of Mus musculus with 12 samples.

Results

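Microglia are the resident macrophages of the brain and spinal cord, and in the undisturbed tissue they carry a set of receptors, adhesion proteins and regulators that is known to be lost as the cells become activated. Here 9 genes of this homeostatic set were followed in the injured spinal cord of mice: Tmem119, P2ry12, P2ry13, Cx3cr1, Sall1, Gpr34, Siglech, Fcrls and Csf1r. The rule took them by gene symbol in the platform annotation and used no measured value, although earlier results of these data were known when they were chosen. Each had exactly 1 probe set, and all 9 were measured, among 19938 genes in all. The groups were wild-type C57BL/6 mice, Il1a KO mice (lacking interleukin-1 alpha) and Il1b KO mice (lacking interleukin-1 beta), both knockouts on the C57BL/6 background, with 4 arrays in each group. Mice were 8 to 12 weeks old, all had received a spinal contusion of 50 kdyn, and a block of cord 6 mm long around the lesion was taken 24 h later. Because every array came from injured cord, the comparisons show differences between genotypes after injury and not the effect of the injury itself. The labels call the arrays biological replicates without naming animals, so a p-value measures the spread between these arrays. Values are log2 probe set signals on which a difference between groups is the log2 of a fold change, and levels of different genes are not compared because probe sets differ in brightness.

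The members differ in what they do. P2ry12 and P2ry13 encode receptors for ADP, which leaks from damaged cells and draws microglial processes towards a wound, and Gpr34 encodes a related receptor for lysophosphatidylserine. Cx3cr1 encodes the receptor of fractalkine, a chemokine made by neurons, and Csf1r the receptor kinase whose ligands, CSF1 and interleukin-34, keep microglia alive. Siglech encodes a sialic acid-binding lectin that signals through the adaptor Tyrobp and is also known from plasmacytoid dendritic cells, Fcrls an Fc receptor-like scavenger protein, Tmem119 a membrane protein used as a microglial marker, and Sall1 a zinc-finger transcription factor that maintains microglial identity. Csf1r and Cx3cr1 are also expressed by monocytes and macrophages from the blood, which enter the injured cord. In a block of tissue, fewer microglia and less RNA per microglial cell cannot be told apart.

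RefSeq promoter sequences of the build GRCm38.p6 (250 bases before to 50 bases after a gene's start) were found for 6 of the 9 members. None was found for Tmem119, Gpr34 or Csf1r. Of the 6, the 4 whose arrays separated 2 genotypes without overlap are printed 5′ to 3′ on the gene's strand. Gpr34 also separated genotypes without overlap but had no window to print. The windows are chr3:59210833-59211132 (minus strand) for P2ry13, chr9:120068247-120068546 (minus strand) for Cx3cr1, chr3:87263475-87263774 (minus strand) for Fcrls and chr7:55767934-55768233 (plus strand) for Siglech. Capitals mark 2 short motifs on either strand: GAGGAA, the core bound by PU.1 (Spi1), the master regulator of macrophages and microglia, and TGTGGT, the core bound by Runx factors.
P2ry13: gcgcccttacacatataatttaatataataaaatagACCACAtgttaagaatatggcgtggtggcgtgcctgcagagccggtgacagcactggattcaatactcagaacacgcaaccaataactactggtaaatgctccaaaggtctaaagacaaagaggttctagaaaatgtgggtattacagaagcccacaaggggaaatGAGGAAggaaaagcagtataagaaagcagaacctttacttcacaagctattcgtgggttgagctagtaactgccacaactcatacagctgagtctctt
Cx3cr1: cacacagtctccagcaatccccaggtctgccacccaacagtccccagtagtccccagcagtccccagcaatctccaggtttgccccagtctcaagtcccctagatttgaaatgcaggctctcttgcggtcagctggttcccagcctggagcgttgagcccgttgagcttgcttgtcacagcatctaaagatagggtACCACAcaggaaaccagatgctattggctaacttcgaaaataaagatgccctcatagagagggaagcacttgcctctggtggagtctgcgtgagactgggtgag
Fcrls: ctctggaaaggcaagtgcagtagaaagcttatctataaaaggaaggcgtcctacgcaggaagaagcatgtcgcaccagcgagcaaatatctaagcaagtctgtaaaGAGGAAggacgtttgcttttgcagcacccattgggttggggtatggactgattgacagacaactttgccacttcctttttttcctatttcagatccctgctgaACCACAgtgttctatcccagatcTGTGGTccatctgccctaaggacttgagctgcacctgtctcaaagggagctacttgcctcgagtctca
Siglech: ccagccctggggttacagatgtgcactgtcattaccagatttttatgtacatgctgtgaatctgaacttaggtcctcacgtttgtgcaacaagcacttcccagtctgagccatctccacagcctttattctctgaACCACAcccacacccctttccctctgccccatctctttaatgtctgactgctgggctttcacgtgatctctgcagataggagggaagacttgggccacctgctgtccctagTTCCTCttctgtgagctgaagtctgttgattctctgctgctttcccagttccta
GAGGAA matched 1 time in each of the P2ry13, Fcrls and Siglech windows and had 0 matches in that of Cx3cr1, while 28.3% of all 32851 promoter windows held it. TGTGGT matched in all 4 windows, with 2 matches in that of Fcrls, against 16.8% of all windows. The longer composite motif of PU.1 with an interferon regulatory factor was held by 2.72% of all windows. A loose form of the Mef2 motif, with any base allowed at its 4 inner positions, was held by 3.69%. Of these only the loose Mef2 form matched in the 4 genes, in the Cx3cr1 window. The inner letters of that match include a G, whereas the Mef2 motif holds only A or T there. It is therefore not a match to the Mef2 motif itself. A match of letters describes the window and shows no binding. The windows of P2ry12 and Sall1 held none of these motifs.

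The targeted genes were read first as a check of the labels. Il1b ranged from 7.68 to 8.06 in wild type, 7.96 to 8.18 in the Il1a KO and 6.19 to 6.63 in the Il1b KO, where it fell by 1.42 on the log2 scale (limma adjusted p = 2.6e-06). Il1a ranged from 5.74 to 6.22 in wild type, 4.87 to 5.03 in the Il1a KO and 4.85 to 5.31 in the Il1b KO. It fell by 0.90 in the Il1a KO (adjusted p = 0.0037) and by 0.77 in the Il1b KO (adjusted p = 0.0039), so that Il1a did not separate the knockouts (log2 difference -0.13, 95% interval -0.37 to 0.12). Where the deletions lie relative to the probes is not given here, so remaining signal does not show remaining transcript of either gene.

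Of the 9 members, 4 had a positive and 5 a negative log2 difference in the Il1a KO (50.2% of all genes were positive), and 1 had a positive and 8 a negative difference in the Il1b KO (52.0% of all genes were positive). In the Il1a KO, Gpr34 and Fcrls lay above every wild-type array, at 1.19-fold and 1.21-fold. In the Il1b KO, Fcrls was again above every wild-type array (1.26-fold), and Cx3cr1 and P2ry13 lay below every wild-type array (1.15-fold and 1.16-fold lower). None of these differences from wild type passed the test over all genes. Only 1 of the 27 comparisons of a member passed: Gpr34 was 1.24-fold higher in the Il1a KO than in the Il1b KO (limma adjusted p = 0.0299). That call held in 7 of the 19 alternatives in which it was tested, and leaving out any 1 of the 8 knockout arrays ended it. Tmem119, P2ry12, Sall1 and Csf1r overlapped between all groups.

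By limma with Benjamini-Hochberg adjustment over all genes (threshold 0.05), 0 of 9 members passed in the Il1a KO against wild type (0.171% of all genes passed), 0 of 9 in the Il1b KO against wild type (0.813% of all genes) and 1 of 9 between the knockouts (0.652% of all genes). By direction, genes that passed as higher and as lower were 0.0752% and 0.0953% of all genes in the Il1a KO, 0.421% and 0.391% in the Il1b KO, and 0.346% and 0.306% in the Il1a KO against the Il1b KO. At an unadjusted p under 0.05 there were 3 members in each comparison, against 8.32%, 13% and 7.79% of all genes. Groups without overlap were found for 2 members in the Il1a KO, both higher (5.06% of all genes, 2.87% higher and 2.19% lower). In the Il1b KO there were 1 higher and 2 lower (7.00% of all genes, 5.06% higher and 1.94% lower), and in the Il1a KO against the Il1b KO 3 higher, Cx3cr1, Gpr34 and Siglech (7.24% of all genes, 2.55% higher and 4.69% lower). The median log2 difference of the members was -0.02 in the Il1a KO, -0.05 in the Il1b KO and 0.06 between the knockouts, and over all genes it was 0.00033, 0.0040 and -0.0042. The comparisons with wild type share the wild-type arrays, and so are not independent of each other. Standard errors of the members ran from 0.0464 to 0.0852 on the log2 scale, which limits the size of difference that 4 arrays a group could show.

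**Figure D1:**
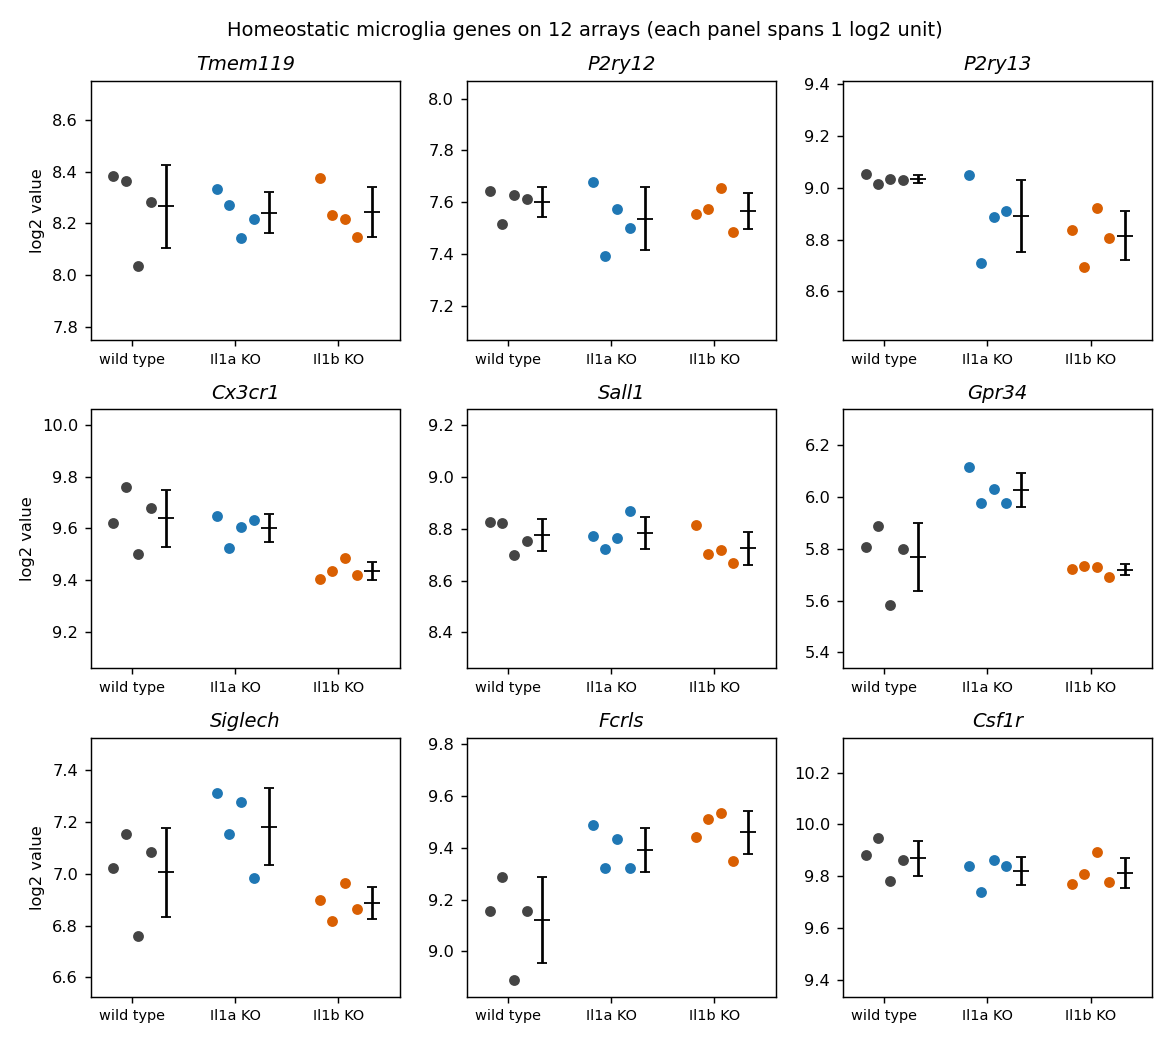
Log2 value of each member on the 12 arrays by genotype (points, in replicate order from left to right), with the group mean and SD (black mark and bar, n = 4), each panel spanning 1 log2 unit. Gpr34 was highest in the Il1a KO, Fcrls was lowest in wild type, and Cx3cr1 was lowest in the Il1b KO.

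**Figure D2:**
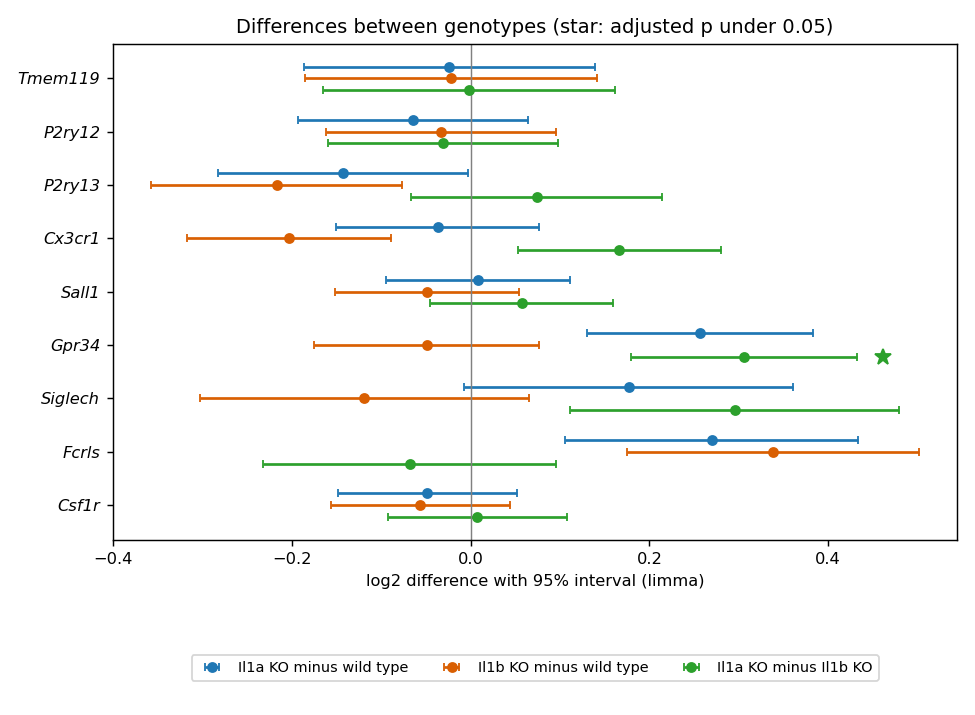
Log2 difference of each member in the 3 comparisons with its 95% interval (limma), the star marking an adjusted p under 0.05. The star stands only at Gpr34 between the knockouts (0.31), and the intervals of Tmem119, P2ry12, Sall1 and Csf1r include 0 in every comparison.

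Among the purinergic and lipid receptors, Gpr34 differed most. Its values were 5.81, 5.89, 5.58 and 5.80 on wild-type replicates 1 to 4, 6.12, 5.98, 6.03 and 5.98 in the Il1a KO and 5.72, 5.74, 5.73 and 5.69 in the Il1b KO. The 4 Il1a KO arrays were the highest of all 12, while the Il1b KO arrays lay inside the wild-type range. The means were 5.77 ± 0.130 in wild type, 6.03 ± 0.0656 in the Il1a KO and 5.72 ± 0.0196 in the Il1b KO (SD, n = 4 each). The Il1a KO exceeded the Il1b KO by 0.31 on the log2 scale (SE 0.0584, 95% interval 0.18 to 0.43, limma adjusted p = 0.0299) and wild type by 0.26 (95% interval 0.13 to 0.38, adjusted p = 0.160). The probe set is dim, among the lowest 20% of genes by mean value, where fold changes are compressed. Leaving out wild type replicate 4 ended the call between the knockouts (adjusted p = 0.0510), as did leaving out any of the 8 knockout arrays in turn (0.28 to 0.32, adjusted p of 0.0671 to 0.114). It held without wild type replicate 1, 2 or 3. It was also lost with quantile normalization repeated (0.27, adjusted p = 0.0918), with a trend in the variance model (adjusted p = 0.0561) and with the replicate number as a block (adjusted p = 0.0710). Gpr34 is X-linked, and Il1a KO replicate 1, its highest array, had an Xist value of 6.47 where all other arrays had 11.9 to 12.2, and a value of 9.15 for the Y-linked gene Eif2s3y where all others had 3.65 to 3.94. Without that array the difference between the knockouts was 0.28 and did not pass (limma adjusted p = 0.114). The other Il1a KO arrays (5.98, 6.03 and 5.98) lay above every wild-type and Il1b KO array. Whether what sets that array apart had a part in the Gpr34 difference was not tested.

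P2ry13 was nearly constant in wild type, at 9.05, 9.01, 9.03 and 9.03 on replicates 1 to 4. It was 9.05, 8.71, 8.89 and 8.91 in the Il1a KO and 8.84, 8.69, 8.92 and 8.81 in the Il1b KO. All Il1b KO arrays lay below wild type, whereas Il1a KO replicate 1 reached the wild-type level. The log2 difference from wild type was -0.22 in the Il1b KO (SE 0.0649, limma adjusted p = 0.177) and -0.14 in the Il1a KO (adjusted p = 0.585), and the knockouts differed by 0.07 (adjusted p = 0.849). P2ry12, the better known ADP receptor of microglial processes, ranged from 7.51 to 7.64 in wild type, 7.39 to 7.68 in the Il1a KO and 7.49 to 7.65 in the Il1b KO, and the 3 ranges overlapped. Its log2 difference from wild type was -0.06 in the Il1a KO (95% interval -0.19 to 0.06) and -0.03 in the Il1b KO (95% interval -0.16 to 0.10).

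Of the chemokine and growth factor receptors, Cx3cr1 separated the Il1b KO from the other genotypes. Its values were 9.62, 9.76, 9.50 and 9.68 on wild-type replicates 1 to 4, 9.65, 9.53, 9.61 and 9.63 in the Il1a KO and 9.40, 9.44, 9.48 and 9.42 in the Il1b KO. Every Il1b KO array was below every array of wild type and of the Il1a KO. The log2 difference was -0.20 against wild type (SE 0.0526, 95% interval -0.32 to -0.09, limma adjusted p = 0.118), and the Il1a KO exceeded the Il1b KO by 0.17 (adjusted p = 0.351). The difference from wild type passed in 4 of 20 alternatives, over which its limma adjusted p ran from 0.0083 to 0.308. It passed without wild type replicate 3 (-0.25, adjusted p = 0.0233), with quantile normalization repeated (-0.24, adjusted p = 0.0469), with a trend in the variance model (adjusted p = 0.0499) and with array weights (-0.24, adjusted p = 0.0083). Its ligand gene Cx3cl1, made mainly by neurons, lay the other way, at 10.76, 10.76, 10.55 and 10.63 in wild type, 10.82, 10.73, 10.78 and 10.74 in the Il1a KO and 10.88, 10.88, 10.85 and 10.82 in the Il1b KO. The lowest Il1b KO array lay above every wild-type array and narrowly above every Il1a KO array, but the log2 difference of 0.19 from wild type did not pass (adjusted p = 0.131).

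Csf1r ranged from 9.78 to 9.95 in wild type, 9.74 to 9.86 in the Il1a KO and 9.77 to 9.89 in the Il1b KO. Its log2 difference from wild type was -0.05 in the Il1a KO (95% interval -0.15 to 0.05, limma adjusted p = 0.888) and -0.06 in the Il1b KO (95% interval -0.16 to 0.04, adjusted p = 0.652). The genes of its ligands overlapped with wild type in either knockout as well. Csf1 ranged from 9.89 to 10.09 in wild type, 9.91 to 9.95 in the Il1a KO and 9.96 to 10.08 in the Il1b KO, the knockouts lying apart (log2 difference -0.07). Il34 had means of 8.39 ± 0.154 in wild type, 8.39 ± 0.0429 in the Il1a KO and 8.42 ± 0.0682 in the Il1b KO (SD, n = 4 each). Neither ligand gene passed in any comparison (adjusted p of 0.782 or more).

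Fcrls and Siglech, the scavenger receptor-like protein and the lectin, did not pass in any comparison. Fcrls was 9.15, 9.29, 8.89 and 9.16 on wild-type replicates 1 to 4, 9.49, 9.32, 9.43 and 9.32 in the Il1a KO and 9.44, 9.51, 9.53 and 9.35 in the Il1b KO. All 8 knockout arrays lay above the highest wild-type array. Its log2 difference from wild type was 0.34 in the Il1b KO (SE 0.0757, 95% interval 0.17 to 0.50, limma adjusted p = 0.0636) and 0.27 in the Il1a KO (95% interval 0.11 to 0.43, adjusted p = 0.298), and the knockouts differed by -0.07 (adjusted p = 0.886). In the Il1b KO it passed in 4 of 20 alternatives, over which its limma adjusted p ran from 0.0216 to 0.196. It passed there without wild type replicate 2 (0.39, adjusted p = 0.0309), without the dimmest 20% of genes (adjusted p = 0.0468), with a trend in the variance model (adjusted p = 0.0232) and with array weights (0.28, adjusted p = 0.0216). Siglech was 7.02, 7.15, 6.76 and 7.08 in wild type, 7.31, 7.15, 7.28 and 6.98 in the Il1a KO and 6.90, 6.82, 6.96 and 6.87 in the Il1b KO. Its wild-type arrays overlapped with each knockout, while the knockouts did not overlap with each other, and the Il1a KO exceeded the Il1b KO by 0.30 (SE 0.0852, adjusted p = 0.259). Markers of plasmacytoid dendritic cells, which also express Siglech, had list means of 8.48 to 8.69 in wild type, 8.62 to 8.66 in the Il1a KO and 8.59 to 8.66 in the Il1b KO, and 0 of the 5 measured passed in any comparison.

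Tmem119 was 8.38, 8.36, 8.03 and 8.28 on wild-type replicates 1 to 4, from 8.14 to 8.33 in the Il1a KO and from 8.15 to 8.38 in the Il1b KO. Its log2 difference was -0.02 from wild type in each knockout, with 95% intervals of -0.19 to 0.14 and -0.18 to 0.14. Wild type replicate 3 was the lowest of all 12 arrays for this gene. Sall1, the transcription factor, ranged from 8.70 to 8.83 in wild type, 8.72 to 8.87 in the Il1a KO and 8.67 to 8.82 in the Il1b KO. Its log2 difference from wild type was 0.0081 in the Il1a KO (95% interval -0.09 to 0.11) and -0.05 in the Il1b KO (95% interval -0.15 to 0.05).

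The variation of the members from array to array was described by the correlations between them. When each array was set against its genotype's mean, 35 of the 36 pairs of members had a positive correlation, with a median r of 0.44. Without wild type replicate 3, a check chosen after seeing the data, 33 pairs were positive with a median of 0.40. Of all other genes, taken singly, 58.0% had a positive correlation with the mean deviation of the members. That is another measure than the share of positive pairs, so it is no background for it. Across all 12 arrays 32 pairs were positive, with r from -0.49 to 0.90. Only 1 of the 36 pairs passed adjustment: Gpr34 with Siglech (Pearson r = 0.898, permutation p = 8.0e-05, adjusted 0.0029, and Spearman rho = 0.881, permutation p = 0.00028, adjusted 0.0101). That r was 0.802 without the 2 arrays farthest from the median of Gpr34 (Il1a KO replicates 1 and 3), and 0.862 on deviations from the genotype means (0.716 without wild type replicate 3). The permutations ignored genotype, and Gpr34 and Siglech both separated the knockouts, so their p-values also take in differences between genotypes. No p-value was computed on deviations. Gpr34 and Fcrls had r = 0.391 across all arrays (permutation p = 0.21, rho = 0.0979 with permutation p = 0.766, and r = 0.221 without Il1a KO replicates 1 and 3) but r = 0.948 on deviations. Cx3cr1 and Fcrls had r = -0.23 across all arrays (permutation p = 0.483, rho = -0.45 with permutation p = 0.148, and r = -0.16 without wild type replicate 2 and Il1b KO replicate 1) against 0.859 on deviations. Without wild type replicate 3 these r values on deviations were 0.878 for Gpr34 with Fcrls and 0.683 for Cx3cr1 with Fcrls.

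**Figure D3:**
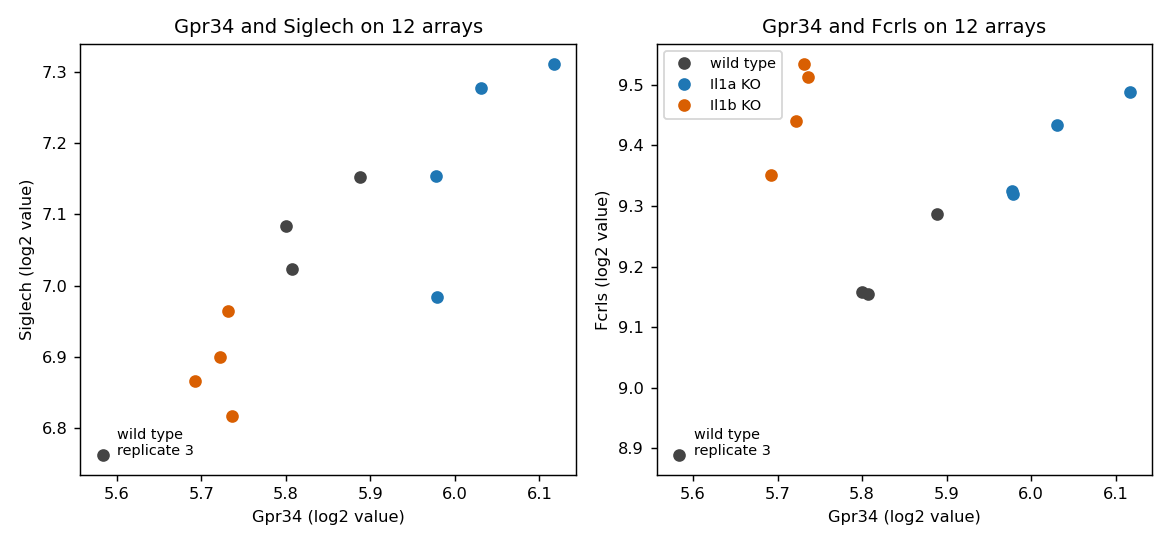
Gpr34 against Siglech (left) and against Fcrls (right), as log2 values, 1 point per array coloured by genotype. On the left r is 0.898 over all 12 arrays and 0.862 on deviations from the genotype means, and on the right r is 0.391 and 0.948.

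Some arrays stood out in this shared variation. Wild type replicate 3 was the lowest wild-type array for 7 of the 9 members, against 38.3% of all genes, and Il1a KO replicate 1 the highest Il1a KO array for 7 members, against 24.9% of all genes. Il1b KO replicate 3 was the highest of its group for 6 members (30.8% of all genes), and Il1a KO replicate 2 the lowest of its group for 6 (30.4%). Wild type replicate 3 was also the highest wild-type array in the list mean of skeletal muscle genes (7.32, where the lowest was 6.92) and of blood monocyte and macrophage markers (8.90, where the lowest was 8.66), and the lowest in astrocyte markers (11.08, where the highest was 11.20). Il1a KO replicate 1 was the lowest Il1a KO array in blood monocyte and macrophage markers (8.45, where the highest was 8.68) and neutrophil markers (7.54, where the highest was 7.89). It was the highest in neuron (11.28), astrocyte (11.22) and mature oligodendrocyte markers (11.78). The part of these in the members' values was not tested.

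**Figure D4:**
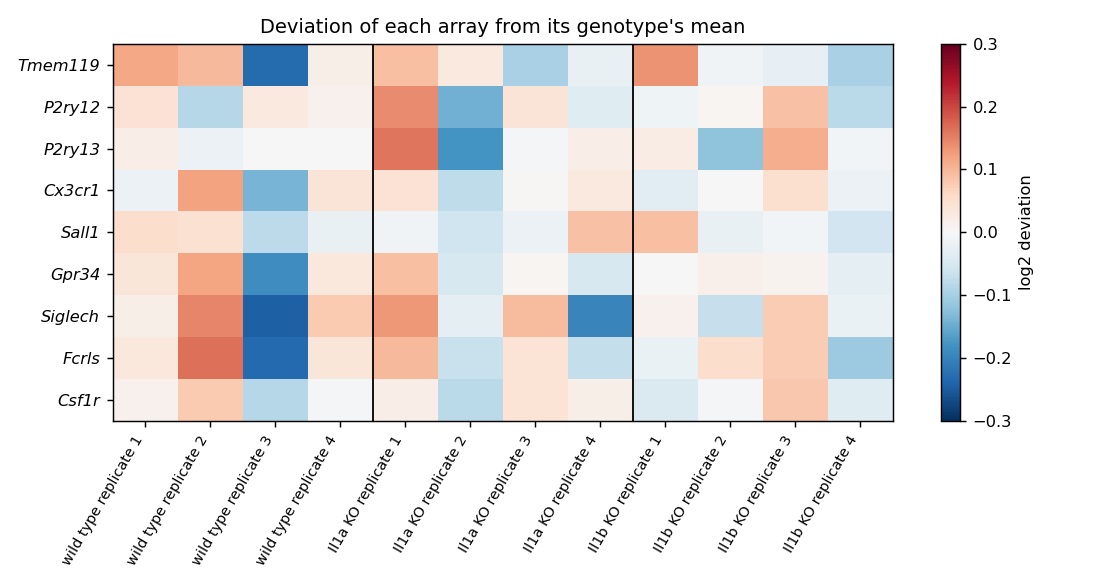
Log2 deviation of each array from its own genotype's mean, members in rows and arrays in columns, red above and blue below the mean. The column of wild type replicate 3 is below the mean for most members and that of Il1a KO replicate 1 above it.

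The 5 genes outside the set whose values over the 12 arrays were most like the mean of the members were Tssc4 (r = 0.900), Tom1l2 (0.891), Gpc1, a glypican of the cell surface (0.878), Ltbp4, a binding protein of latent TGF-beta (0.858), and Hmgb3, a chromatin protein (0.852). On deviations from the genotype means their r was 0.901, 0.864, 0.842, 0.862 and 0.802. These are the highest of 19938 genes over 12 arrays and are given as a description, with no test.

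Other genes of microglia were read from lists. Of 30 further signature genes, 27 were measured. In the Il1a KO 0 passed (0.171% of all genes), and in the Il1b KO 1 passed as lower (0.391% of all genes). Between the knockouts 1 passed as lower in the Il1a KO than in the Il1b KO (0.306% of all genes). The median log2 differences of the list were -0.02, -0.0015 and -0.02. The gene that fell in the Il1b KO was Itgam, which encodes the CD11b chain of complement receptor 3 and is shared with neutrophils and monocytes. Its values were 9.73, 9.81, 9.91 and 9.88 in wild type, 9.50, 9.74, 9.77 and 9.77 in the Il1a KO and 9.05, 9.51, 9.53 and 9.35 in the Il1b KO. Every Il1b KO array was below the lowest of wild type (log2 difference -0.48, SE 0.0966, limma adjusted p = 0.0384). This call was lost in 8 of the 12 fits that left out an array (adjusted p of 0.0526 without Il1b KO replicate 1, whose omission gave -0.38, to 0.135 without wild type replicate 4) and when the fit held only these 2 groups (adjusted p = 0.105). The neutrophil gene Ly6g also fell in the Il1b KO (-0.55, adjusted p = 0.0087), in all 12 such fits. It was the only 1 of 12 neutrophil markers to pass there, where 10 were lower and 2 higher than wild type (median -0.21). In the Il1a KO all 12 were lower (median -0.35), with Ly6g at -0.45 (limma adjusted p = 0.0980) and Itgam at -0.14 (adjusted p = 0.797). Whether neutrophils had a part in the Itgam difference was not tested.

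Lpcat2, an acyltransferase that makes platelet-activating factor in myeloid cells, was lower in the Il1a KO, at 9.62, 9.49, 9.30 and 9.46 against 9.89, 9.79, 10.07 and 9.87 in the Il1b KO and 9.80, 9.93, 9.80 and 9.85 in wild type. All Il1a KO arrays lay below all others. The log2 difference between the knockouts was -0.44 (SE 0.0695, limma adjusted p = 0.0076) and passed in each of the 12 fits that left out an array, and against wild type it was -0.38 (adjusted p = 0.0609). Also with the smallest p of this list were Adgrg1, an adhesion receptor of microglia and other glia (0.13 in the Il1a KO, adjusted p = 0.379), and Crybb1 (-0.16 in the Il1b KO, adjusted p = 0.352).

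Genes of the ligands and partners of the members (7 of 8 measured), of the TGF-beta axis and transcription factors of microglia (15 of 16) and of activated microglia (17 of 18) had 0 members past the test in any comparison. Among partners, Nt5e, which turns AMP into adenosine, was at -0.19 in the Il1a KO (adjusted p = 0.561), Pla1a, which makes the ligand of Gpr34, at -0.17 (adjusted p = 0.572), and Entpd1, which degrades ATP and ADP, at 0.14 in the Il1b KO (adjusted p = 0.375). Among regulators, Runx1 was at -0.24 in the Il1a KO (adjusted p = 0.328), with all of its Il1a KO arrays below wild type, and Irf8 at -0.18 in the Il1b KO (adjusted p = 0.196), with all of its Il1b KO arrays below wild type. Smad4 was at -0.06 in the Il1a KO and -0.07 in the Il1b KO (adjusted p of 0.743 and 0.445), and Lrrc32, which holds latent TGF-beta, at -0.15 between the knockouts (adjusted p = 0.682). Among activation genes, Clec7a, the receptor dectin-1, was at 0.41 in the Il1a KO (adjusted p = 0.328), the lysosomal genes Cd63 and Cd68 at -0.16 (adjusted p = 0.549) and -0.12 (adjusted p = 0.602), and Fabp5 and Lpl at 0.16 (adjusted p = 0.320) and -0.24 (adjusted p = 0.323) in the Il1b KO. Median log2 differences of the activation list were -0.03, 0.05 and -0.07 in the 3 comparisons, and 6, 11 and 4 of its 17 genes were positive. Over all genes 50.2%, 52.0% and 47.3% were positive.

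Markers of the tissue and of other cells were read beside the members. The list means of neurons (11.19 to 11.28 over all arrays), astrocytes (11.08 to 11.22) and mature oligodendrocytes (11.42 to 11.78), the tissue's own cells, were present on every array. Neutrophil markers were lower than wild type in 12 of 12 genes in the Il1a KO (median -0.35) and in 10 of 12 in the Il1b KO (median -0.21), with list means of 7.89 to 8.23 in wild type, 7.54 to 7.89 in the Il1a KO and 7.45 to 8.10 in the Il1b KO. Markers of monocytes and macrophages from the blood were lower in 10 of 12 genes in the Il1a KO (median -0.11) and in 7 of 12 in the Il1b KO (median -0.02), with list means of 8.66 to 8.90, 8.45 to 8.68 and 8.58 to 8.92. Border-associated macrophages, which share Csf1r and Cx3cr1 with microglia, had 4 of 8 markers positive in either knockout. Mature oligodendrocyte markers were higher in 8 of 8 genes in each knockout (medians 0.19 and 0.14), and skeletal muscle genes lower in 8 of 8 (medians -0.16 and -0.18). The muscle list means overlapped, at 6.92 to 7.32 in wild type, 6.93 to 6.96 in the Il1a KO and 6.85 to 7.01 in the Il1b KO. The lowest wild-type array lay below every Il1a KO array. Of these lists only Ly6g, in the Il1b KO, passed the test over all genes. Over all genes 50.2% were positive in the Il1a KO and 52.0% in the Il1b KO. The part of these marker genes in the members' differences was not tested.

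The members lie on several chromosomes, and the 20 measured genes nearest to each in order along the chromosome, 10 on either side, were read for their calls. Over all genes 0.171% passed in the Il1a KO, 0.813% in the Il1b KO and 0.652% between the knockouts. P2ry12 and P2ry13 are neighbours on chromosome 3, where Igsf10, next to P2ry12, passed in the Il1a KO and Sucnr1 in the Il1b KO. Exog, near Cx3cr1 on chromosome 9, passed in the Il1b KO. Sall1 lies next to Tox3 on chromosome 8. Of the 20 measured genes nearest to Sall1, Tox3 and Crnde passed in the Il1a KO, as they did between the knockouts, while Sall1 itself did not. Crnde was also among the 20 nearest to Lpcat2 on the same chromosome, and Crnde and Mmp2 passed there between the knockouts. Near Gpr34, Siglech, Fcrls, Tmem119 and Csf1r, 0 of the 20 nearest genes passed in any of the 3 comparisons. Near Itgam on chromosome 7, Rusf1 passed in the Il1b KO and between the knockouts, and 9130023H24Rik between the knockouts.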

How the data were processed

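RNA of 12 samples of injured spinal cord was measured on Affymetrix whole-transcript arrays. The deposited values, 1 per probe set and array, are log2 signals made by the authors and were used as they stand. The tools listed for the samples are GCOS 1.4, Partek, RMA and limma. The submitters' processing text was not among the sources used here, so what each tool did is not known here. The values ran from 2.97 to 14.4, with array medians of 7.67 to 7.72. That they are RMA summaries was inferred from these, and RMA equalises arrays and compresses dim genes. Detection calls were not used, and the annotation's genome build is not given in the sources used here.

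Among 35557 probe sets, 21789 had exactly 1 gene symbol, 1621 had several and were left out, and 12147 had none. The brightest probe set stood for each of 19938 genes, renamed through RefSeq by gene identifier. limma 3.58.1 in R 4.3.3 fitted 1 mean per group to all arrays, without a trend, and was checked on simulated data. That check required recovery only of changes larger than any member difference. It therefore does not show that differences of the members' size would be found. Adjusted p is Benjamini-Hochberg over all genes, two-sided, threshold 0.05. The number of arrays limits the precision. Correlations used 100000 permutations of the arrays regardless of genotype, two-sided. The members were always named. From the other lists, genes past the threshold, the ligand genes and the 2 smallest p per microglial list and comparison were named, and further genes were chosen after their values were seen. Members and lists were chosen with earlier results of these data known. Replicate numbers were not used to pair arrays across groups in the main fit. Correlations of deviations ran from -0.37 to 0.44 between arrays of the same number and from -0.51 to 0.57 between arrays of different numbers. Alternatives were other normalizations, probe set rules, filters and variance models, a replicate block, 2-group fits and leaving out each array.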

Additional observations from a re-analysis of the deposited data

Results flagged for a closer look

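The effects of the knockouts on Gpr34 differed by a direct test: the Il1a KO exceeded the Il1b KO by 0.31 on the log2 scale (limma adjusted p = 0.0299), with 4 of 4 Il1a KO arrays above all Il1b KO arrays. Over the alternatives in which it was tested, its adjusted p ran from 0.0013 to 0.114. Among the 27 sets of 4 arrays (9 members in 3 groups), 0 had an array set apart from the others by the gap test used here.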

How the results depend on the processing

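Of 537 values of the 27 member differences under the alternatives, 496 kept their sign and their side of the threshold, and 20 from 8 differences changed sign, to between -0.021 and 0.043. Many of these values could not change sign. Each member had 1 probe set, so averaging probe sets returned the main difference. The gene filter, variance trend, replicate block, fits of only the compared groups and omission of an array outside the comparison also left it unchanged. The count of kept signs is therefore no measure of stability. The sign changed for Tmem119 between the knockouts with quantile normalization repeated (0.014) and with arrays centred on their medians (0.013), for Sall1 in the Il1a KO (-0.00078) and for Gpr34 in the Il1b KO (0.0045) with quantile normalization. It also changed in fits without 1 array, whose ranges were -0.10 to 0.015 (Tmem119, Il1a KO), -0.099 to 0.017 (Tmem119, Il1b KO), -0.034 to 0.043 (Tmem119, between knockouts), -0.084 to 0.0036 (Cx3cr1, Il1a KO), -0.021 to 0.028 (Sall1, Il1a KO), -0.078 to 0.017 (P2ry12, between knockouts) and -0.0068 to 0.035 (Csf1r, between knockouts).

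The count of members past the threshold in the Il1a KO became 1 with array weights (Gpr34, adjusted p = 0.0273) and stayed 0 without any 1 array. In the Il1b KO it became 1 with quantile normalization and 1 without the dimmest 20% of genes, 2 with a variance trend, 2 with array weights, and 0 to 1 without 1 array. Between the knockouts it became 0 with quantile normalization, with the variance trend, with the replicate block and without the dimmest genes, where Gpr34 was not tested, and was 0 to 1 without 1 array. The count of all genes in the Il1a KO was 72 with the trend, 306 with weights, 15 with only 2 groups in the fit and 18 to 49 without 1 array. In the Il1b KO it was 303, 1145, 85 and 106 to 177, and between the knockouts 244 with weights and 88 to 146 without 1 array. With the replicate block the counts were 26, 120 and 105, against 34, 162 and 130. For differences that changed call the cause was not tested, beyond the removal of dim genes. Signal over background was not measured, and Gpr34 lies among the dimmest 20% of genes.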
